A study of Homo sapiens with 20 samples.

Results

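The hormone response changed by FOXA1 knockdown was measured in T47D cells, a long-used line of luminal type from a breast carcinoma, in which both the oestrogen and the progesterone receptor are present. Cells were transfected with si-control, a control siRNA, or with si-FOXA1, which targets FOXA1, kept in charcoal-stripped serum and then overnight without serum, and given the synthetic progestin R5020 at 10 nM. RNA was sequenced at 0 h and 6 h of hormone, with 2 libraries in each of the 4 groups, so that 8 of the 20 samples of the series belong here. Of the other 12, 8 are libraries of the same times under siRNAs against BRG1 (the SWI/SNF ATPase SMARCA4) or CBX3 (the heterochromatin protein HP1 gamma), 2 are RNA-seq libraries without siRNA at 0 h and 6 h, and 2 are BRG1 ChIP-seq peak lists at 0 and 30 min. All groups share the medium and the cell line. The 6 h groups share the dose of 10 nM R5020 and the 0 h groups had none. The knockdown lowers FOXA1 RNA without removing it.

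FOXA1 is a forkhead pioneer factor: it binds its motif in closed chromatin, mostly at enhancers away from promoters, and makes these sites open to other factors. In luminal breast cells it is known for setting where the oestrogen and progesterone receptors can bind. The progesterone receptor, once bound by a progestin such as R5020, moves to hormone response elements and raises or lowers the transcription of nearby genes, and it also signals through kinases in the cytoplasm.

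Genes were described by the interaction of siRNA and hormone: the response of a gene in si-FOXA1 (6 h against 0 h, log2 fold change) minus its response in si-control. A difference below 0 therefore means that the si-FOXA1 response was the lower one, whether a rise shrank or a fall deepened. All values were fitted with edgeR's quasi-likelihood test, n = 2 libraries per group, and a call means a Benjamini-Hochberg adjusted p below 0.05 over the 18806 genes tested. Levels are given per library as CPM, fragment counts scaled to the size of the library with TMM factors, and are compared within a gene only. The labels do not say whether the 2 libraries of a group came from separate cultures, so the p-values cover the spread among these libraries and no more.

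The 8 libraries held between 50558030 and 66980856 fragments. FOXA1 (ENSG00000129514.4, hg19 chromosome 14, 38059189 to 38069245) checked the labels. In si-control it was at 389 and 408 CPM at 0 h and 199 and 166 at 6 h, and in si-FOXA1 at 61.4 and 62.8 at 0 h and 45.8 and 44.4 at 6 h. Every si-FOXA1 library lay below every si-control library. FOXA1 also fell with hormone, by more in si-control (-1.12) than in si-FOXA1 (-0.46), so the gap was smaller at 6 h. The summed level of 27 luminal marker genes was 17593 to 18579 CPM in the si-FOXA1 libraries and 18389 to 21443 in the si-control ones. That of 20 basal markers was 892 to 933 against 356 to 475. The 7 leukocyte markers that passed the filter summed to a few CPM, and the 11 mesenchymal markers to 43.1 to 56.4 CPM in si-FOXA1 and 91.2 to 126 in si-control. Endothelial markers (4 tested) went the other way, at 20.2 to 45.1 CPM in si-FOXA1 and 13.1 to 17.2 in si-control. In bulk RNA, fewer cells of a type and less RNA per cell cannot be told apart. The part of these marker levels in the differences below was not tested. The si-control 0 h libraries differed from each other in interferon-stimulated genes, which summed to 7625 CPM in replicate 1 and 3854 in replicate 2. These genes summed to 4492 to 4909 CPM in si-control at 6 h and to 755 to 957 over the si-FOXA1 libraries. The headers of the count files record different thread settings for the si-FOXA1 and si-CBX3 files than for the si-control and si-BRG1 files, so that 2 counting commands were used. Any effect of that counting that differs with time cannot be told apart from the siRNA within the si-control comparison. The counts of classes and of the main gene lists are therefore also given with the si-CBX3 response as the reference.

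The response differed between the siRNAs in 5401 of the 18806 genes tested (28.7%). The si-FOXA1 response was higher in 2451 of them (13%) and lower in 2950 (15.7%). Fitting the 8 libraries alone gave 3107 higher and 2433 lower, so which direction holds more genes depends on the fit. The difference was called and at least 2-fold in 1303 genes (6.93%), 714 higher (3.8%) and 589 lower (3.13%). Hormone raised 3665 genes (19.5%) and lowered 3405 (18.1%) in si-control, and raised 3600 (19.1%) and lowered 3695 (19.6%) in si-FOXA1. Called rises and falls were 18.6% and 17.1% of genes in si-BRG1 and 20.4% and 20.5% in si-CBX3. Of the levels at 0 h, 40% were called above si-control and 33.5% below it in si-FOXA1, and of those at 6 h 40.1% and 34.5%.

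The called genes fall into classes by which of the responses were called. A lost response was called in si-control and not in si-FOXA1, which does not show that it is absent there: 1001 rises (5.32% of genes tested) and 803 falls (4.27%) were lost. A reversed response was called under both siRNAs with opposite signs, in 384 genes that rose in si-control (2.04%) and 333 that fell (1.77%). A gained response was called only in si-FOXA1, in 790 rises (4.2%) and 920 falls (4.89%). The response kept its sign and was weaker in si-FOXA1 in 365 rises (1.94%) and 161 falls (0.856%), and stronger in 268 rises (1.43%) and 141 falls (0.75%). In a further 235 genes (1.25%) neither response was called. In the fit on the 8 libraries alone the lost rises were 849 and the lost falls 1030, and the reversed rises 288 and the reversed falls 492.

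**Figure D1:**
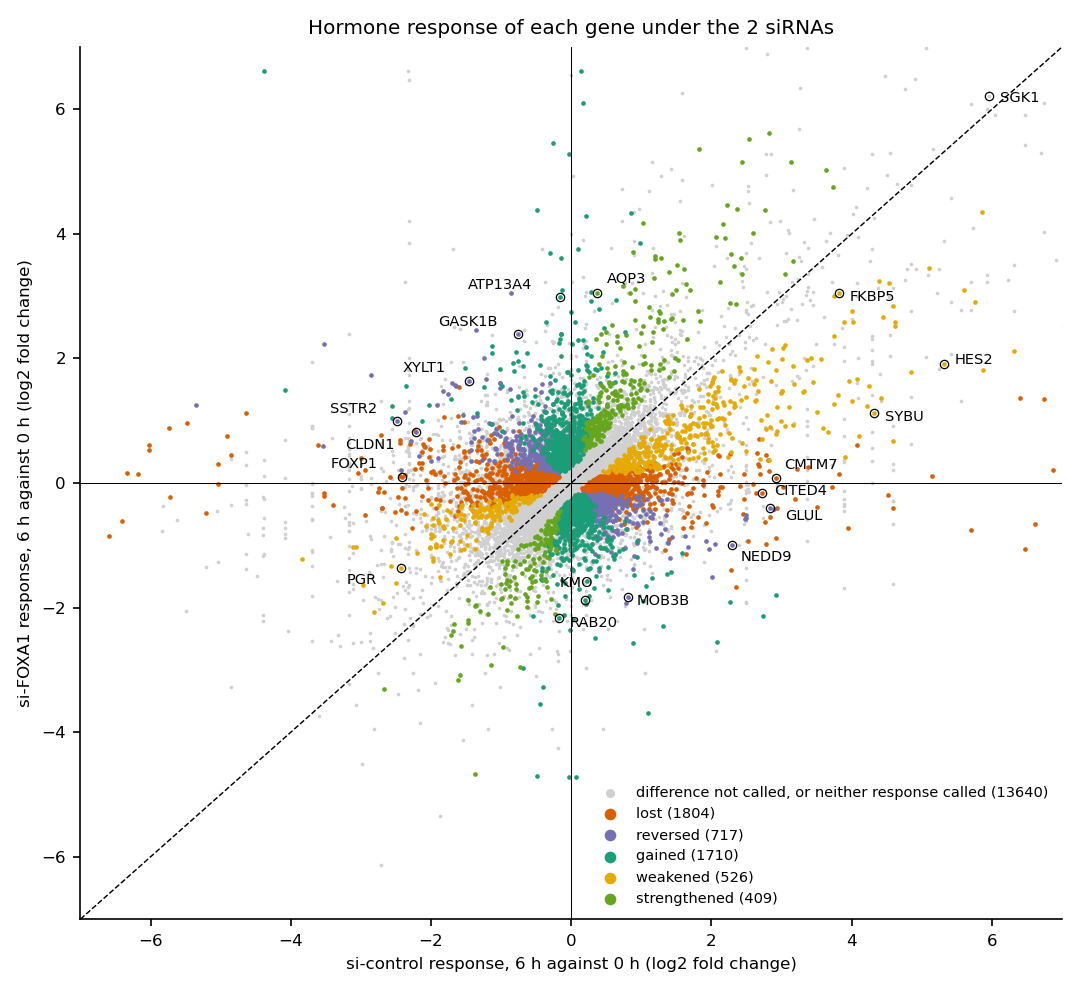
Hormone response of each tested gene in si-control (horizontal axis) and si-FOXA1 (vertical axis), both as log2 fold change of 6 h against 0 h, coloured by class; the dashed line marks equal responses and 36 genes lie outside the axes. SGK1 lies close to the line, lost genes lie along the horizontal axis, gained genes along the vertical axis, and reversed genes such as GLUL and SSTR2 in the quadrants of opposite sign.

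Medians over the classes are a description, since the calls and signs of these responses formed the classes. Lost rises had a median response of 0.51 in si-control and -0.08 in si-FOXA1, and lost falls -0.61 and 0.07. Reversed rises went from 0.42 to -0.36 and reversed falls from -0.44 to 0.46. Gained rises had a median of -0.08 in si-control and 0.60 in si-FOXA1, gained falls 0.09 and -0.45. Weakened rises had the highest median of these classes in si-control, at 1.57 in si-control and 0.67 in si-FOXA1. Over all genes tested the median response was -0.02 in si-control and -0.04 in si-FOXA1, and the median difference -0.01. The classes also differed in level between the siRNAs, values that share their libraries with the responses. Lost rises had a median of 0.09 (si-FOXA1 against si-control, log2) at 0 h and -0.53 at 6 h, lost falls -0.17 and 0.53, and reversed falls -0.56 and 0.48, against 0.11 and 0.12 over all genes tested.

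The fate of a response was also counted, for all si-control responses and for large ones shared by si-BRG1 and si-CBX3. Of all 3665 rises of si-control, 27.3% were lost, 10.5% reversed, 9.96% weakened and 7.31% strengthened, and for 44.9% no difference was called. For all 3405 falls of si-control these shares were 23.6%, 9.78%, 4.73%, 4.14% and 57.8%. Of the 789 rises of at least 2-fold that were also called in si-BRG1 and in si-CBX3, 92 were lost (11.7%), 24 reversed, 265 weakened (33.6%) and 69 strengthened. No difference was called for 339 (43.0%). The median response of the 789 was 1.81 in si-control, 1.88 in si-BRG1, 1.76 in si-CBX3 and 1.31 in si-FOXA1. Of the 479 falls chosen in the same way, 94 were lost (19.6%), 27 reversed, 109 weakened (22.8%) and 18 strengthened. For 231 (48.2%) no difference was called. The medians of the 479 were -1.36, -1.32, -1.39 and -0.72 in the same order. These genes were chosen by their calls in si-control, si-BRG1 and si-CBX3, so those 3 medians come from selected values and the si-FOXA1 median does not, and no comparison is drawn from them.

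The steroid receptor genes NR3C1, PGR and ESR1 changed their response, while no difference was called for NR3C2 or ESR2 (adjusted p = 0.817 and 0.467). NR3C1, the glucocorticoid receptor, reversed: 29.3 and 31.2 CPM became 18.0 and 19.8 in si-control, while 12.1 and 12.9 became 18.7 and 17.5 in si-FOXA1. The groups thus met at 6 h from opposite sides, with a difference of 1.21 (SE 0.11).

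PGR, the receptor for R5020, kept its fall in a smaller size. Its levels were 473 and 571 CPM, then 84.4 and 110.1, in si-control, and 551 and 516, then 217 and 198, in si-FOXA1. The libraries of the 2 siRNAs overlapped before hormone and separated after it, and the difference was 1.06 (SE 0.19, adjusted p = 0.000629). Against the si-CBX3 response it was 0.46 and was not called (adjusted p = 0.0831). ESR1, the oestrogen receptor, fell by 1.24 in si-control and by 0.44 in si-FOXA1, from 211 and 221 CPM to 92.1 and 91.0 and from 144 and 141 to 106 and 105; in the libraries without siRNA it went the other way, from 18.0 to 38.7 RPKM. For the luminal factor GATA3 the difference was 0.24 (SE 0.11, adjusted p = 0.123). Of 28 receptor and coregulator genes tested, the difference was higher in 7 and lower in 3, with a median of 0.19, against 13% and 15.7% of all genes. In the fit on the 8 libraries alone 12 were higher, and against the si-CBX3 response 11 (13.1% of all genes).

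Induced targets of the progesterone and glucocorticoid receptors mostly still rose. SGK1, a kinase gene used as a marker of steroid induction, went from 0.58 and 0.41 CPM to 32.4 and 30.1 in si-control and from 0.548 and 0.609 to 43.7 and 42.5 in si-FOXA1, with a difference of 0.25 (SE 0.28, adjusted p = 0.546). Of the 32 genes of this list tested, 23 rose and 1 fell in si-control and 24 rose and 1 fell in si-FOXA1. The size changed: the difference was lower in 14 and higher in 1, with a median of -0.61. With the si-CBX3 response in place of si-control, 11 were lower and 7 higher (14.7% and 13.1% of all genes), with a median of -0.22.

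Within that list 11 genes had weakened rises, among them several signalling genes, and 3 lost theirs: PER1 and, named after their values were seen, GADD45A and BCL2L1. STAT5A, a transcription factor that acts with the progesterone receptor in mammary cells, went from 7.97 and 6.22 CPM to 88.9 and 79.8 in si-control and from 17.6 and 17.9 to 66.8 and 74.1 in si-FOXA1. It started higher and ended slightly lower, so that its response was 3.57 in si-control and 1.99 in si-FOXA1. F3 (tissue factor) had a difference of -2.51 (SE 0.24), EGFR one of -1.03 (SE 0.12), and ERRFI1, a feedback inhibitor of EGFR, one of -1.42 (SE 0.09). All 3 were above si-control before hormone, EGFR for example at 68.9 and 67.2 CPM against 24.4 and 22.1. DUSP1, a MAP kinase phosphatase, rose from 12.1 and 11.4 CPM to 99.1 and 111 in si-control but only from 14.1 and 14.6 to 27.3 and 27.5 in si-FOXA1. Its response in si-CBX3 was 1.00, so that against si-CBX3 the difference was -0.07 (adjusted p = 0.701), and for ERRFI1 it was -0.09 (adjusted p = 0.501). FKBP5, a co-chaperone of steroid receptors, had a smaller rise than in si-control (3.06 against 3.82) and a larger one than in si-CBX3 (2.59). TSC22D3, known as GILZ, was the member with a stronger rise, from 22.1 and 24.1 CPM to 81.3 and 84.2 in si-FOXA1, a response of 1.84 against 1.31, with no difference called against si-CBX3 (0.01).

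Rises that were lost are described through 7 named genes of the class, which differed in where the si-FOXA1 level stood. In some it was already at or above the induced si-control level before hormone. CITED4, a co-activator of CBP and p300 (chromosome 1, 41326729 to 41328018, minus strand), was at 7.29 and 7.19 CPM at 0 h and 35.9 and 59.6 at 6 h in si-control. In si-FOXA1 it was at 58.2 and 56.5 before hormone and at 43.8 and 58.8 after it. Only the si-control 0 h libraries were low, and the difference was -2.88 (SE 0.26, adjusted p = 5.86e-07). FJX1 (35.2 and 38.2, then 159 and 229 CPM in si-control, and 299.9 and 290.2, then 264 and 306 in si-FOXA1), the zinc finger gene SP6 and the receptor gene LDLRAD3 (14.4 and 14.6, then 54.1 and 52.9, against 115 and 117, then 111 and 116) had the same form. Their si-FOXA1 libraries lay above every si-control library at both times.

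In others the gene stayed at the uninduced level. CMTM7, a MARVEL-domain membrane protein gene (chromosome 3, 32433163 to 32524559, plus strand), rose from 6.20 and 5.35 CPM to 41.4 and 45.8 in si-control, and was at 6.21 and 5.11, then 5.61 and 6.40, in si-FOXA1. The si-control 6 h libraries stood alone, 7.54-fold above 0 h, and the si-FOXA1 response was 0.09 (SE 0.12); the difference was -2.83 (SE 0.16, adjusted p = 3.26e-09). CMTM7 rose by 3.10 in si-BRG1 and 3.003 in si-CBX3. TENT5C, a poly(A) polymerase gene, behaved likewise at 8.97 and 8.68, then 31.1 and 24.4 CPM in si-control and 6.97 and 7.43, then 6.84 and 5.92 in si-FOXA1. The clock gene PER1 (10.0 and 8.08, then 30.3 and 30.3 CPM, against 20.97 and 20.8, then 18.2 and 21.4) lay between these forms. The 7 named lost rises described here had differences of -2.88 to -1.82, and each was also called against si-CBX3. They were chosen for large differences, and that comparison uses the same si-FOXA1 libraries. Of all lost rises 54.2% were called in the same direction against si-CBX3, and for MAFF and CCN1, lost rises named through lists, the sign turned.

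**Figure D2:**
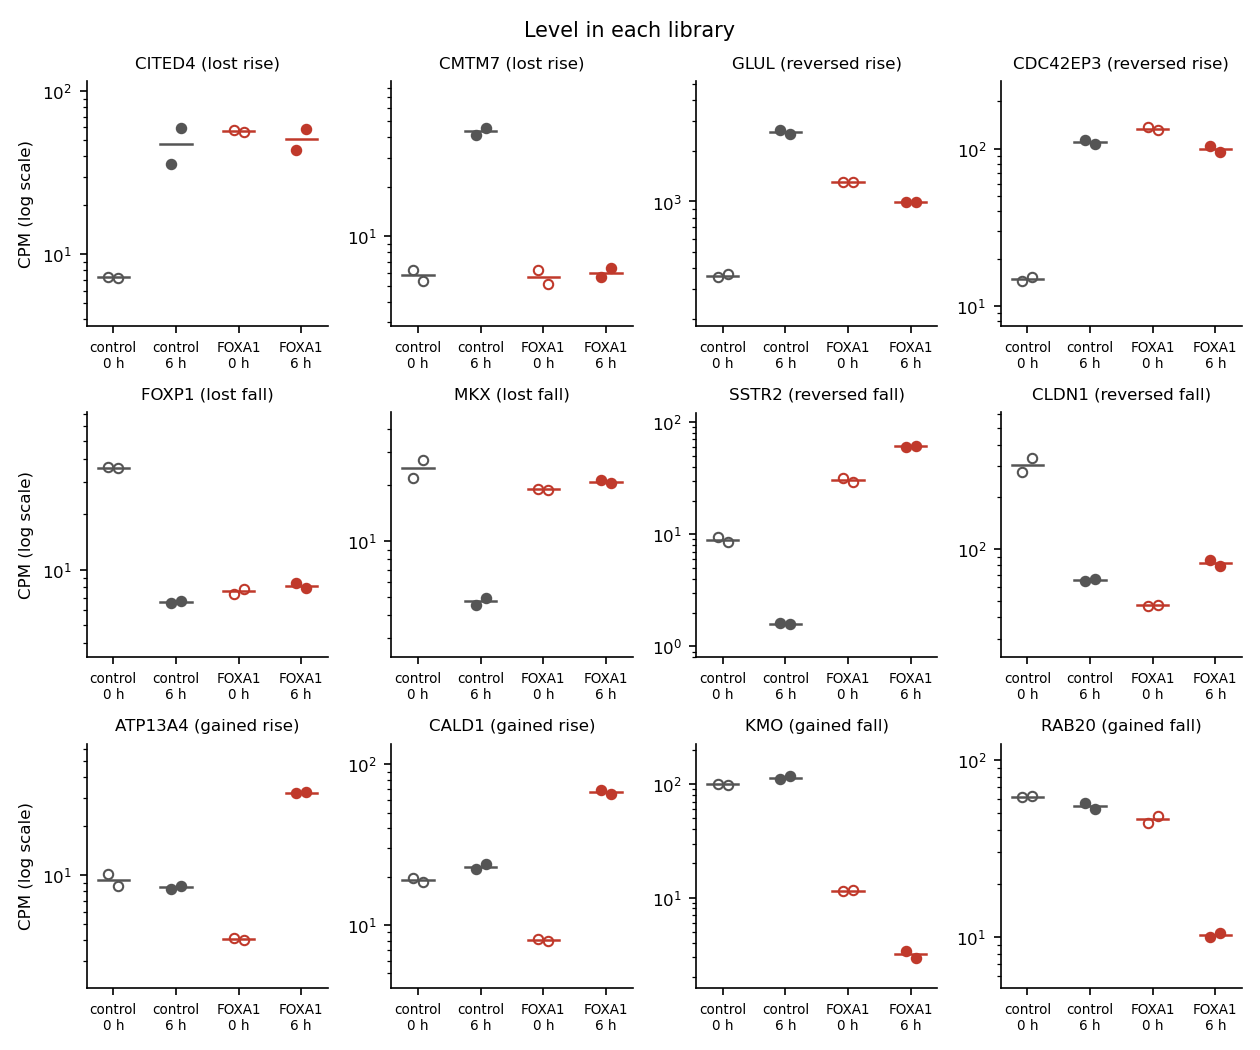
Level of 12 named genes in each library (CPM, log scale), with open symbols at 0 h, filled symbols at 6 h, grey for si-control, red for si-FOXA1 and a line at each group mean. CITED4 and FOXP1 have si-FOXA1 levels near the hormone-treated si-control level at both times, CMTM7 stays at its si-control 0 h level, and ATP13A4 and CALD1 rise in si-FOXA1.

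CITED4 has BRG1 peaks at its start in the authors' lists, at chr1:41326995-41327938 at 0 min and chr1:41326955-41328157 at 30 min (hg19, peak scores of 54.61 and 103.51 as the authors' peak caller gave them, 1 library per time). The earlier peak ends inside the gene, 80 bases from the start, and the later one overlaps the start. Promoters are shown for the 4 genes of the largest difference among the 17 of the 48 named lost, reversed and gained genes that have a peak within 1 kb of the start. Such a peak need not cover the bases shown. That of CITED4 is from RefSeq on GRCh38.p14, chromosome 1, 40862364 to 40862613, minus strand, the 250 bases before the annotated start.
CITED4: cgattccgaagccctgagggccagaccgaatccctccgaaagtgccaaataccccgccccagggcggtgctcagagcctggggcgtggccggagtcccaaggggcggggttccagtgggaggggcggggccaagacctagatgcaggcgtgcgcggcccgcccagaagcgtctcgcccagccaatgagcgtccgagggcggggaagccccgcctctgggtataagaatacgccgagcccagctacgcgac
Across all 4, the forkhead core TGTTTAC and the receptor half-site TGTTCT were searched on both strands, and no base is in capitals since neither was found. Of the promoters of tested genes, 1.94% hold TGTTTAC and 7.77% TGTTCT in such a window, and of those of lost, reversed and gained genes 2.01% and 7.30%. The window is short and proximal, and a match or its absence is a description of these letters only.

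Falls that were lost included regulators of transcription and the cell cycle. FOXP1, another forkhead factor (chromosome 3, 71003844 to 71633140, minus strand), was at 35.8 and 35.4 CPM at 0 h and 6.57 and 6.77 at 6 h in si-control. In si-FOXA1 it was at 7.403 and 7.85, then 8.45 and 7.91, near the level that hormone produced in si-control. The difference was 2.52 (SE 0.15, adjusted p = 3.94e-09), and FOXP1 fell by 1.95 in si-BRG1 and 2.55 in si-CBX3. CDKN2B, the cyclin-dependent kinase inhibitor p15, had the same form at 57.7 and 64.5, then 19.5 and 19.9 CPM in si-control against 19.5 and 18.3, then 19.9 and 20.2. In FOXP1 and CDKN2B the si-control 0 h libraries were thus the only high ones.

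Other lost falls kept the untreated level. The homeobox gene MKX was at 21.9 and 27.3, then 4.55 and 4.93 CPM in si-control and at 19.04 and 18.9, then 21.3 and 20.5 in si-FOXA1. SMAD3, which carries TGF-beta signals to the nucleus, was at 32.1 and 27.3, then 11.2 and 10.6 against 36.1 and 36.6, then 38.7 and 41.9. Here the si-control 6 h libraries were the only low ones, and the differences were 2.51 (SE 0.16) and 1.60 (SE 0.15). In the single libraries without siRNA SMAD3 was at 1.58 RPKM at 0 h and 3.64 at 6 h, the direction opposite to its fall in si-control. The mitotic gene CENPF was higher in si-FOXA1 than in si-control at both times (185 and 165, then 258 and 204 CPM, against 68.0 and 54.7, then 25.2 and 26.5), and SPTSSB and KCTD6 followed; the differences of these named lost falls were 1.60 to 2.52.

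In reversed rises the si-FOXA1 level was often high before hormone and came down with it. GLUL, glutamine synthetase (chromosome 1, 182350839 to 182361341, minus strand), rose from 354 and 368 CPM to 2671 and 2507 in si-control, and fell from 1302 and 1314 to 998 and 989 in si-FOXA1. The 4 groups did not overlap, and the difference was -3.24 (SE 0.11, adjusted p = 1.47e-11). CDC42EP3, an effector of the CDC42 GTPase (chromosome 2, 37869032 to 37965611, minus strand), rose from 14.4 and 15.4 to 113 and 107 CPM and fell from 137 and 131 to 104 and 95.7, so that both siRNAs ended near the same level. NEDD9, a scaffold protein of focal adhesions, rose from 3.91 and 4.43 to 19.9 and 20.9 and fell from 99.2 and 99.5 to 49.6 and 50.4; its lowest si-FOXA1 library was above its highest si-control library. These 3 genes rose in si-BRG1 (2.77 to 3.10) and in si-CBX3 (1.92 to 2.96).

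The haem transporter family gene FLVCR2 and the channel-associated gene TCAF2 reversed from a lower start. FLVCR2 rose from 21.8 and 21.4 to 67.0 and 65.8 CPM in si-control and fell from 14.2 and 14.0 to 7.86 and 7.78 in si-FOXA1, a difference of -2.47 (SE 0.12). RASD2, MOB3B and CCDC85B were the others of the 8 named, with differences of -3.05 to -2.33. The response of RASD2 was 0.46 in si-CBX3, against 2.48 in si-control. CCDC85B had the widest spread (9.16 and 17.7 CPM in si-control at 6 h, SE 0.39), and its rise in si-control was not shared by si-BRG1 (-0.50) or si-CBX3 (0.28).

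The start of GLUL lies under a BRG1 peak at 30 min (chr1:182358588-182362042, hg19, score 84.89), with none within 5 kb at 0 min. Its promoter, the second of the 4, is from RefSeq on GRCh38.p14, chromosome 1, 182391791 to 182392040, minus strand; the window held neither motif.
GLUL: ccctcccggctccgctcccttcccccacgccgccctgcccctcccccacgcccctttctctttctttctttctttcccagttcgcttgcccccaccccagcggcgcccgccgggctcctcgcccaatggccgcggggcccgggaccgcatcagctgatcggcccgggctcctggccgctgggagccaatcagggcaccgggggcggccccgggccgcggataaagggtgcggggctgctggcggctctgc

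Reversed falls started from a low or a high level in si-FOXA1 and rose. SSTR2, a somatostatin receptor (chromosome 17, 71161151 to 71167185, plus strand), fell from 9.46 and 8.46 to 1.62 and 1.57 CPM in si-control and rose from 31.8 and 29.5 to 59.99 and 61.8 in si-FOXA1. All 4 groups were apart, and the difference of 3.48 (SE 0.14, adjusted p = 4.42e-11) was the largest among the genes named for the lost, reversed and gained classes. SSTR2 fell by 2.15 in si-BRG1 and 1.11 in si-CBX3. CLDN1, the tight junction protein claudin-1, fell from 277 and 336 to 65.3 and 66.5 CPM and rose from 46.5 and 47.5 to 85.9 and 79.6, a difference of 3.03 (SE 0.11). XYLT1, which starts the glycosaminoglycan chains of proteoglycans, was at similar levels before hormone (22.7 and 20.6 against 18.0 and 21.3 CPM) and then parted to 8.29 and 7.47 against 60.1 and 62.7. Of these 3 genes XYLT1 alone began with overlapping libraries, and its difference was 3.10 (SE 0.15).

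GASK1B, a Golgi-associated kinase family gene (chromosome 4, 159045626 to 159094470, minus strand), fell from 142 and 191 to 109.6 and 86.7 CPM in si-control and rose from 5.95 and 5.34 to 31.3 and 28.1 in si-FOXA1. It was lower in si-FOXA1 throughout, and the difference was 3.16 (SE 0.18). Its antisense partner GASK1B-AS1 (159091904 to 159124029, plus strand), which was counted by strand, went from 26.0 and 23.7 to 22.4 and 22.3 CPM in si-control and from 5.01 and 4.93 to 25.7 and 26.4 in si-FOXA1, a gained rise of 2.39. The interleukin-1 receptor gene IL1R1, the prostaglandin receptor gene PTGER3, GAREM1 and the phosphodiesterase gene PDE8B complete the 8 named, with differences of 2.21 to 2.65. The rise of IL1R1 in si-FOXA1 was small (0.22, from 10.5 and 10.6 to 12.05 and 12.4 CPM). MYB, a transcription factor of oestrogen-responsive cells named through its list, reversed by 3.51 (SE 0.20): 6.78 and 5.55 CPM became 1.17 and 1.21 in si-control and 3.03 and 3.30 became 7.49 and 6.52 in si-FOXA1.

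SSTR2 had a BRG1 peak inside the gene, 423 bases from its start, at 30 min (chr17:71161574-71163244, score 58.77) and none within 5 kb at 0 min. That peak does not reach the promoter bases shown. GASK1B had a peak inside the gene, 76 bases from its start, at 0 min (chr4:159093671-159094394, score 50.6). At 30 min it had peaks at chr4:159091397-159092307 (score 59.25) and chr4:159097041-159098538 (score 184.72), the nearest 2163 bases from the start. The peaks are in hg19. Their promoters are from RefSeq on GRCh38.p14 at chromosome 17, 73164760 to 73165009, plus strand, and chromosome 4, 158173026 to 158173275, minus strand. Their GC content was 69.2% and 45.6%, against 69.2% for CITED4 and 74.8% for GLUL.
SSTR2: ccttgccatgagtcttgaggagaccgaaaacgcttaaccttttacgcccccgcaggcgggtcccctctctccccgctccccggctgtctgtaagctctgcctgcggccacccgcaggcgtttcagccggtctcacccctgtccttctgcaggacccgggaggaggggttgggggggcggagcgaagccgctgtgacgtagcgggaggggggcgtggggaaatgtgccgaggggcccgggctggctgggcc
GASK1B: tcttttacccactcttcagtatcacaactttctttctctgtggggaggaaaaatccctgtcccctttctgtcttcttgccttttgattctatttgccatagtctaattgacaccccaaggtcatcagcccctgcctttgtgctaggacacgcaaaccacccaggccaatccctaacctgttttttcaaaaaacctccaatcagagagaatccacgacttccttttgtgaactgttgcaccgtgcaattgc

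Gained rises were genes on which R5020 had no called effect in si-control. ATP13A4, a P5-type transport ATPase gene (chromosome 3, 193119866 to 193310900, minus strand), was at 10.3 and 8.61, then 8.27 and 8.63 CPM in si-control, and at 4.13 and 3.99, then 32.1 and 32.3 in si-FOXA1. The si-FOXA1 libraries were the lowest before hormone and the highest after it, a response of 2.99 against -0.16 (SE 0.10 for each) and a difference of 3.15 (SE 0.14, adjusted p = 1.90e-10). CALD1, the actin-binding protein caldesmon, had the same order, at 19.5 and 18.5, then 22.3 and 23.8 CPM against 8.21 and 7.94, then 69.4 and 65.4. GCLM, a subunit of the enzyme that makes glutathione's precursor, rose from 22.6 and 21.1 to 100.0 and 97.9 in si-FOXA1 while it was at 11.97 and 16.7, then 14.0 and 19.2 in si-control. GCLM also rose in si-CBX3, by 1.34. The co-activator gene PPARGC1B, OGFRL1, CAB39L and PPM1K followed, with differences of 1.53 to 1.85.

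Gained falls included a metabolic enzyme and a trafficking gene. KMO, kynurenine 3-monooxygenase of tryptophan breakdown (chromosome 1, 241695434 to 241758944, plus strand), was at 101 and 99.6, then 111 and 119 CPM in si-control and at 11.5 and 11.6, then 3.39 and 2.93 in si-FOXA1. It was already low in si-FOXA1 and fell further, with a difference of -2.06 (SE 0.16). RAB20, a small GTPase gene, was at 61.6 and 62.4, then 57.0 and 52.8 CPM against 44.0 and 48.2, then 10.0 and 10.5. ID3, an inhibitor of bHLH factors, went from 30.7 and 31.9 to 7.97 and 9.91 in si-FOXA1 against 16.1 and 15.7, then 19.9 and 17.8. Only the si-FOXA1 6 h libraries of RAB20 and ID3 were low. The responses in si-CBX3 were also below 0, at -1.18 for RAB20 and -1.47 for ID3, where the difference of ID3 was not called (-0.34, adjusted p = 0.108). The same held for TRIB1, at -1.39 in si-FOXA1 and -1.31 in si-CBX3. KLF7, the DNA repair gene RBBP8, the stress cytokine gene GDF15 and the adaptor gene SHB were the others, with differences of -1.80 to -1.42.

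**Figure D3:**
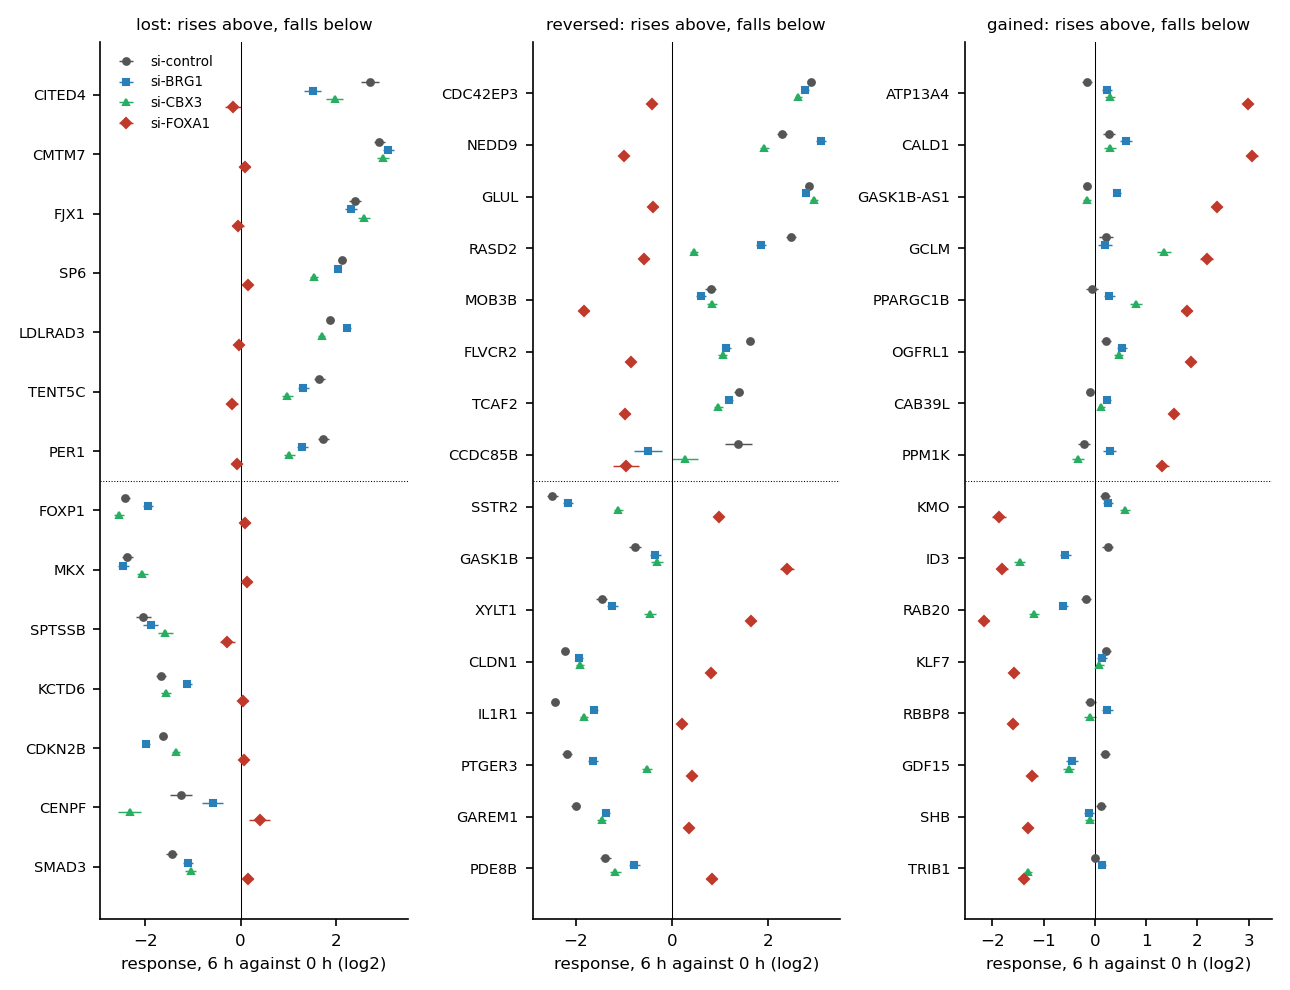
Hormone response (log2 fold change of 6 h against 0 h, with bars of 1 SE) of 46 genes named for the lost, reversed and gained classes under the 4 siRNAs. In most rows the si-FOXA1 symbol stands apart from the other 3, as for GLUL (2.84, 2.78 and 2.96 against -0.40), while for ID3 and TRIB1 the si-CBX3 symbol lies near it.

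The si-BRG1 and si-CBX3 libraries, which have their own 0 h and 6 h groups, give the hormone response under other siRNAs. Of the 1001 lost rises, 413 (41.3%) were also called rises in both of these siRNAs, and of the 803 lost falls 334 (41.6%) were falls in both. The shares were 28.1% and 27.3% for reversed rises and falls, and 96.7% and 95.03% for weakened ones, against 57.2% of all si-control rises and 46.9% of all falls (11.1% and 8.49% of the genes tested). Of the gained rises 112 (14.2%) rose in both, and of the gained falls 115 (12.5%) fell in both. Over all genes tested, rises and falls together, 4582 (24.4%) were called in both in the direction of si-control, or of si-FOXA1 for gained genes. The 11.1% and 8.49% hold only genes called in si-control, so no gained gene is among them. With the si-CBX3 response as the reference the difference was higher in 13.1% of genes and lower in 14.7%. Classes formed anew against it, with the same si-FOXA1 libraries, held 868 lost rises, 955 lost falls, 327 reversed rises, 304 reversed falls, 641 gained rises and 881 gained falls. These need not be the same genes. Of the genes classed against si-control, 54.2% of lost rises and 51.3% of lost falls kept a called difference of the same direction. The shares were 83.9% and 76.9% for reversed rises and falls and 58.5% and 65.1% for gained ones, against 26.0% of all genes tested.

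The 2 libraries without siRNA, which took no part in forming the classes, moved as si-control did for most lost genes. Of lost rises 85.3% were higher at 6 h than at 0 h, against 55.7% of all genes tested, and of lost falls 68.6% were lower, against 41.9%. Over all si-control rises 87.6% were higher and over all si-control falls 68.3% lower, so these shares are not particular to lost genes. For reversed rises 78.4% were higher and for reversed falls 59.8% lower. Weakened rises were higher in 98.1% and weakened falls lower in 90.1%. Gained rises were higher in 61.01% and gained falls lower in 40.2%. With 1 library per time these shares have no test.

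Weakened and strengthened responses were named for 16 genes. HES2, a bHLH repressor gene, rose from 1.16 and 1.18 to 45.9 and 47.7 CPM in si-control and from 6.83 and 7.26 to 25.5 and 27.4 in si-FOXA1, a rise of 1.91 in place of 5.32. SYBU, CYRIA and SEC14L2 were the next, with differences of -3.20 to -2.68. SEC14L2, a lipid-binding protein gene, began near the si-control level (8.13 and 7.46 against 5.79 and 5.50 CPM) and reached 19.2 and 19.7 against 90.1 and 90.7. SYBU and CYRIA began higher in si-FOXA1. The kinase gene PLK2 led the weakened falls (-2.51 in si-control, -0.88 in si-FOXA1), before SRGAP3, RNF152 and RAB30.

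AQP3, the aquaglyceroporin gene, led the strengthened rises. It was at 52.5 and 58.8, then 77.4 and 65.7 CPM in si-control and at 3.12 and 2.97, then 23.2 and 27.4 in si-FOXA1. It stayed below every si-control library while its rise was 3.06 against 0.36. BMF, a pro-apoptotic BH3-only gene, passed its si-control level (79.1 and 69.8, then 125 and 123, against 34.7 and 35.8, then 315 and 315), with a difference of 2.43 (SE 0.10). LRRC31 and C3orf70 rose more strongly too, and MB21D2, TUFT1, FHL2 and ANGPTL4 fell more strongly, by differences of -2.22 to -1.43. ANGPTL4 fell by 2.12 in si-CBX3, where the sign of its difference turned (0.21, not called).

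Gene groups were described by counts, set against 13% higher and 15.7% lower among all genes tested. Mitotic (G2/M) genes moved towards a higher response: of 29 tested the difference was higher in 15 and in none lower, with a median of 0.52. In si-control 2 rose and 15 fell, and in si-FOXA1 11 rose and 1 fell. ECT2, which acts in cytokinesis, went from 328 and 381 to 222 and 222 CPM in si-control and from 102 and 92.8 to 135 and 112 in si-FOXA1, opposite signs of -0.67 and 0.34. BUB1B, a spindle checkpoint kinase gene, was at 29.7 and 27.2, then 26.2 and 29.9 CPM and rose from 24.8 and 21.8 to 46.9 and 44.4. The counts were 14 higher and 2 lower against si-CBX3. Of the 29 G1/S genes, 19 rose and 2 fell in si-control and 25 rose and none fell in si-FOXA1, and the difference was higher in 3 and lower in 4.

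Genes of glucose use and hypoxia had lower differences in 15 of 26, with 1 higher and a median of -0.43. Their count of rises went from 12 in si-control to 8 in si-FOXA1 and that of falls from 1 to 7. LDHA, lactate dehydrogenase A, rose from 1036 and 1072 to 1893 and 1972 CPM in si-control and was at 400.5 and 419.8, then 435 and 399, in si-FOXA1. All its si-FOXA1 libraries were lower than the si-control 0 h libraries, and the rise of 0.87 was lost (0.02, SE 0.07). PFKFB3, which makes the activator of glycolysis, rose by 2.83 in si-control (94.9 and 92.8 to 649 and 684 CPM) and by 0.91 in si-FOXA1 (180.3 and 181 to 343 and 333). The glucose transporter gene SLC2A1 rose by 2.05 and 0.53. Against si-CBX3, 13 of the list were lower and 3 higher.

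Stress genes of ATF4 and the unfolded protein response had lower differences in 12 of 24 and higher ones in 2 (median -0.32; 13 and 1 against si-CBX3). Without si-control 6 h replicate 2 these were 7 and 2. In si-control 18 rose and 2 fell, and in si-FOXA1 7 rose and 6 fell. The amino acid transporter gene SLC7A5 rose from 448 and 482 to 792 and 812 CPM in si-control and was at 1003 and 1025, then 845 and 978, in si-FOXA1, a lost rise. SESN2, a stress-induced inhibitor of mTORC1, had a gained fall (0.13 and -0.79). Of 24 genes that make cholesterol, 15 had called rises and 1 a called fall in si-control, against 7 and 3 in si-FOXA1. The difference was lower in 8 and higher in 2 (7 and 0 against si-CBX3; 5 and 3 without si-control 6 h replicate 1), among them the lost rise of LSS, lanosterol synthase (0.48 and -0.19).

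Immediate-early genes turned with the reference. Against si-control the difference was lower in 15 of 33 and higher in 4 (median -0.74), and against si-CBX3 higher in 17 and lower in 2 (median 0.62). With the mean of the si-control, si-BRG1 and si-CBX3 responses as the reference the counts were 9 and 9. MYC, named through this list, was at 17.7 and 16.2, then 26.4 and 27.5 CPM in si-control and at 118 and 132, then 69.6 and 72.6 in si-FOXA1: a rise of 0.67 and a fall of 0.81. It fell by 0.53 in si-CBX3 as well, and the difference from it was -0.28 (adjusted p = 0.0674). Of 16 AP-1 family members the difference was lower in 7 and higher in 1 against si-control, and lower in 4 and higher in 5 against si-CBX3. MAP kinase feedback genes were 10 lower and 2 higher of 19, and 5 and 6 against si-CBX3. Against si-CBX3, where 14.7% of all genes were lower and 13.1% higher, lower calls did not outnumber higher ones in any of these 3 lists.

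Luminal genes (27 tested) were higher in 9 and lower in 5, in both directions even among factors of one lineage. The fall of SPDEF, an ETS factor of secretory cells, deepened from -0.36 to -1.58, and AGR3, which belongs to the disulfide isomerase family, rose by 3.10 from a low level (6.45 and 7.06 to 59.97 and 55.8 CPM) against 1.69 in si-control. Basal genes were higher in 2 and lower in 5 of 20. Of the forkhead family 6 were higher and 4 lower of 19. Interferon-stimulated genes were higher in 4 and lower in 3 of 35 (median -0.15). Without si-control 0 h replicate 1, the library in which they were highest, these counts were 3 and 17 (median -0.66), and without replicate 2 they were 8 and 1, so no direction is given for that list. Of the EGFR family and its ligands 7 of 16 were lower and 4 higher, and EGF itself rose more in si-FOXA1 (12.1 and 10.1 to 84.6 and 82.8 CPM, 2.92 against 0.91).

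The remaining lists were described by counts of higher and lower differences. They were 9 lower and 6 higher of 27 oestrogen receptor targets, 8 and 1 of 20 YAP and TEAD targets, and 4 and 1 of 14 NF-kB targets. Against si-CBX3 these became 1 lower and 5 higher for NF-kB and 6 lower and 5 higher for YAP and TEAD. Fatty acid synthesis genes had 5 lower and 6 higher of 20, TGF-beta and BMP response genes 9 and 5 of 21 (3 and 3 against si-CBX3), Wnt pathway genes 7 and 4 of 22, and Notch pathway genes 5 and 4 of 21. Circadian genes had 5 and 6 of 21, and the KLF family 7 and 3 of 16 (5 and 6 against si-CBX3). Without si-FOXA1 0 h replicate 2 or 6 h replicate 1, 3 circadian genes were higher. For p53 target genes the counts were 6 and 4 among 21, for subunits of SWI/SNF 5 and 4 among 23, and for histones 4 and 1 among 18. Of the markers of other cell types, mesenchymal genes had 3 and 1 of 11, endothelial genes 1 and 0 of 4, and leukocyte genes none of 7.

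**Figure D4:**
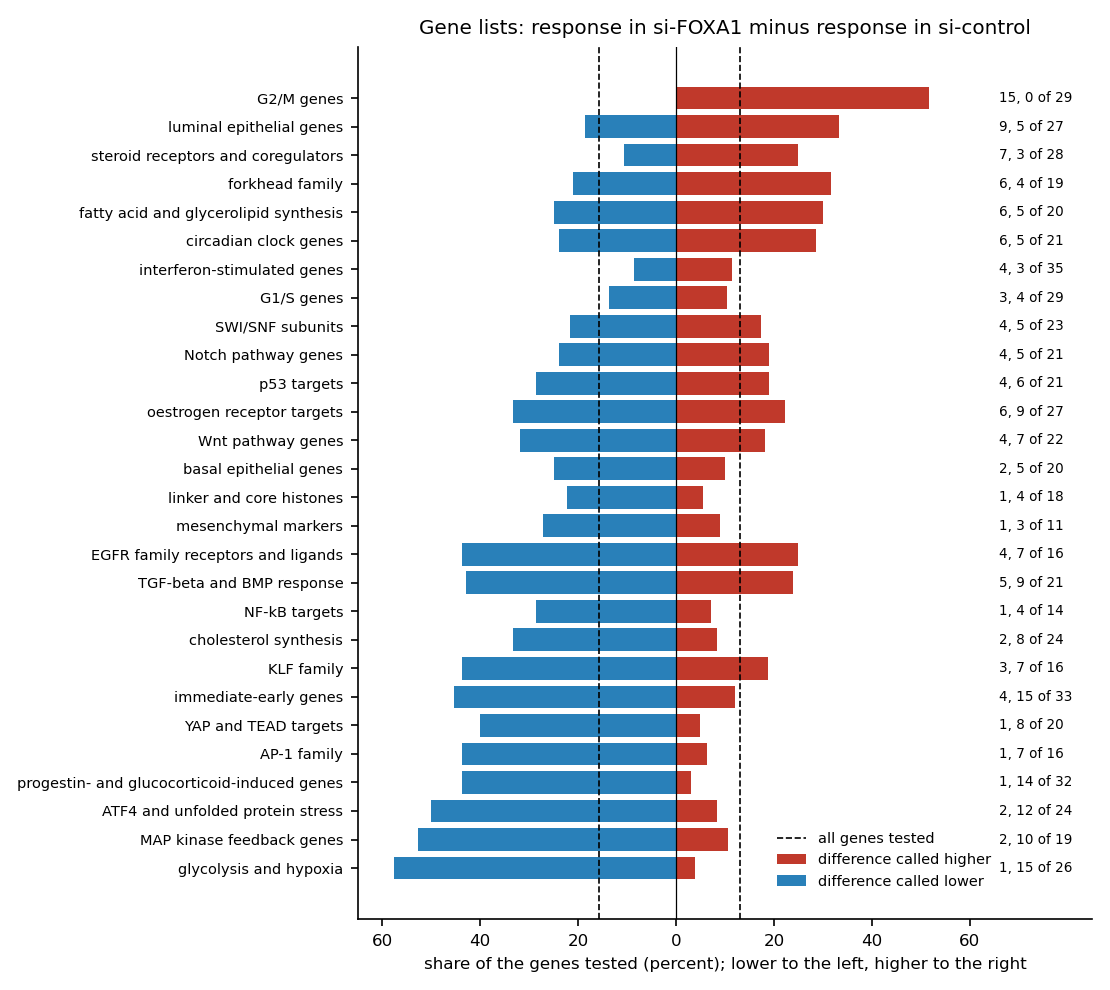
Share of each list's tested genes whose response was called higher (red, right) or lower (blue, left) in si-FOXA1 than in si-control, in percent, with the counts at the right as higher, lower and tested; dashed lines mark 13% and 15.7% over all genes. G2/M genes have 15 higher and 0 lower calls of 29, and the glycolysis and hypoxia list 15 lower calls of 26.

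The difference moved with the length of the gene's exons. Genes whose log-CPM averaged 3 or more were put into 5 equal bins of summed exon length, and the median difference was -0.23 in the bin of the shortest genes and 0.16 in that of the longest. The si-control response ran from 0.13 to -0.11 across the bins and the si-FOXA1 response from -0.10 to 0.04, and the calls went from 122 higher and 701 lower to 597 higher and 246 lower. Lost rises had a median exon length of 3763 bases and lost falls one of 6194, against 3880.5 over all genes tested. It was 4251 for all si-control rises and 5345 for all si-control falls, so those sets already differed in length. When the trend with length was taken out of each library, medians lay between -0.03 and -0.01 in all bins and the calls were 2677 higher and 2625 lower. The correction removes this trend by construction, so the flat medians are no separate result. Of the reversed genes, 383 of 384 rises and 331 of 333 falls still had a called difference, of the lost ones 796 of 1001 and 682 of 803, and of the gained ones 711 of 790 and 688 of 920. The part of gene length in these results was not tested further.

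**Figure D5:**
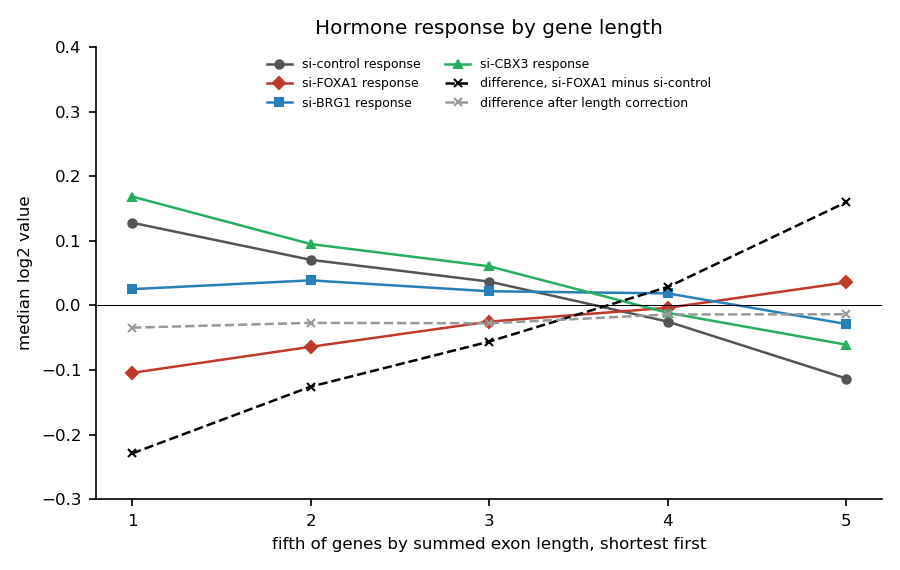
Median response under each siRNA and median difference (log2) in 5 equal bins of genes by summed exon length. The difference between si-FOXA1 and si-control rises from -0.23 to 0.16. It is nearly flat after the length correction, which removes this trend by construction. The si-CBX3 response has a slope like that of si-control and the si-BRG1 response a smaller one.

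BRG1 peaks at 30 min lay within 5 kb of the start of 10.3% of the genes tested (95% Wilson interval 9.86 to 10.7). The share was 9.69% (8.01 to 11.7) for lost rises and 15.8% (13.5 to 18.5) for lost falls. Reversed rises had 6.51% (4.45 to 9.43) and reversed falls 18.0% (14.3 to 22.5). Gained rises had 12.03% (9.94 to 14.5) and gained falls 8.48% (6.85 to 10.5). Weakened rises had 25.8% (21.5 to 30.5) and weakened falls 25.5% (19.4 to 32.7). Strengthened rises had 23.1% (18.5 to 28.5) and strengthened falls 19.1% (13.5 to 26.4), with intervals that overlap those of the weakened classes. All si-control rises had 14.1% and all si-control falls 14.7%, which lies within the interval of the lost falls. The intervals cover counting error only, the lists come from 1 library per time, and no FOXA1 binding data were used here.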

How the data were processed

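RNA was made with a stranded mRNA kit and the authors deposited, per the file headers, counts of fragments per gene from featureCounts 1.4.6-p2 (reverse-stranded, GENCODE 19, hg19); the submitters' processing notes name Trimmomatic and STAR, of which versions are not given in the labels. The 2 tables without siRNA hold estimated reads and RPKM per transcript, as the authors deposited them, and RPKM was summed per gene. The BRG1 peak lists hold a score per peak from the authors' caller, used here only to describe a peak, and HOMER and Bowtie 1.0.0 are named in the submitters' processing notes.

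Counts of 16 siRNA libraries were fitted with edgeR 4.0.16 in R 4.3.3 (genes passing filterByExpr, TMM, 1 mean for each of 8 groups, quasi-likelihood test, Benjamini-Hochberg adjustment over all genes tested). SEs are of Wald type. All 8 groups share 1 estimate of the spread, though the spread between the 2 libraries was not equal. The mean chi-square per gene for equal proportions in both was 28.1 in si-control 0 h and 8.83 in si-control 6 h. It was 4.23 in si-FOXA1 0 h, 22.1 in si-FOXA1 6 h and 57.2 in si-BRG1 6 h. A shared estimate can make SEs and p-values too small where a group spreads more widely. Levels differ from raw CPM by the TMM factor. A pseudocount of 1 was added to RPKM before logs. Distances run from a gene's 5′ end in the annotation of the count files to the nearest peak.

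Named genes were FOXA1, PGR, ESR1, GATA3, NR3C1, FKBP5, TSC22D3 and SGK1, then, of genes whose log-CPM averaged 3 or more, with 0.5 CPM or more on average in all 4 groups and libraries that did not overlap between times where a response was called, the 8 of largest difference in each lost, reversed or gained class, the 4 largest in each weakened or strengthened class, and up to 4 of lowest p per list. Some genes that the rule names are not reported here. The members and lists were chosen with earlier results of these data known. The scripts were tested on simulated data. Alternatives were other references (si-CBX3, the mean of 3 siRNAs), DESeq2 1.42.0, its size factors, no filter, the 8 libraries alone, a length correction, stricter thresholds, a replicate block and leaving out each library. The length correction was chosen after seeing the data.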

Additional observations from a re-analysis of the deposited data

Results flagged for a closer look

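The hormone response differed between si-FOXA1 and si-control, by the interaction term of edgeR's quasi-likelihood test, in 5401 genes. Among the named genes with opposite called responses, the difference was -3.31 for CDC42EP3, -3.28 for NEDD9, -3.24 for GLUL, -3.05 for RASD2, -2.63 for MOB3B, -2.47 for FLVCR2, -2.35 for TCAF2 and -2.33 for CCDC85B, which rose in si-control and fell in si-FOXA1. It was 3.48 for SSTR2, 3.16 for GASK1B, 3.10 for XYLT1, 3.03 for CLDN1, 2.65 for IL1R1, 2.61 for PTGER3, 2.36 for GAREM1 and 2.21 for PDE8B, which fell in si-control and rose in si-FOXA1. These values are on the log2 scale, si-FOXA1 response minus si-control response, and the genes were named for the size of that difference.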

How the results depend on the processing

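The count of 5401 genes was 5349 with DESeq2, 5325 with its size factors, 5545 without the filter on low counts, 5540 in the 8-library fit, 5302 with the length correction, 5233 with the si-CBX3 reference and 5978 with the mean of 3 siRNAs as reference. The mean reference gave 1443 weakened or strengthened genes in place of 935. At an adjusted p below 0.01 there were 3190 differences, 1116 lost, 313 reversed and 1016 gained responses and 528 weakened or strengthened ones. Requiring a 2-fold difference left 1303 genes, with 381 lost, 285 reversed, 324 gained and 269 weakened or strengthened. Classes drawn by the size of the responses held 389 lost, 335 reversed and 275 gained genes. Of the lost and reversed responses, 747 and 199 were also called in si-BRG1 and si-CBX3.

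With 1 library left out in turn, the differences ranged from 3639 to 5678, lost responses from 1030 to 1822, reversed from 369 to 841, gained from 884 to 1874, and weakened or strengthened from 608 to 847. The group reduced to 1 library is then assumed to vary like the others. Counts moved by over 1.5 times without si-FOXA1 0 h replicate 1 (466 reversed), without si-FOXA1 0 h replicate 2 (369 reversed, 962 gained, 608 weakened or strengthened, 1619 higher), without si-FOXA1 6 h replicate 1 (403 reversed, 884 gained) and without si-control 6 h replicate 2 (1030 lost, 428 reversed).

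With the si-CBX3 reference the difference turned to 0.47 for FKBP5, 0.21 for ANGPTL4, 0.34 for MAFF, 0.93 for CCN1, 0.61 for CCN2, 0.54 for BCL3, 0.13 for CIART and 0.0067 for KLF4, and 25 others of the 160 named genes were no longer called. With the mean reference BCL3 turned to 0.0076 and 4 others were no longer called, and with the length correction 3 were not. The cause was not tested. DESeq2, its size factors and no filter left all 160 on their side of the threshold, and leaving out 1 library moved at most 2 of them.

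A replicate block gave 5649 differences, with 1820 lost, 823 reversed, 1781 gained and 978 weakened or strengthened, and changed no call of a named gene. Deviations of same-numbered libraries at 0 h and 6 h correlated at 0.31 in si-FOXA1, 0.32 in si-BRG1, 0.15 in si-CBX3 and -0.06 in si-control over 9793 genes, and between si-control and si-FOXA1 at 0.05 at 0 h and 0.14 at 6 h. Since not every pair was above 0.1 and the labels name no shared batch, the numbers were not taken to pair the samples, though 3 of the 4 siRNAs give a hint of it. With 2 libraries per group a lost response is one that was not called, and its SE bounds what could be seen.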
